A study of Mus musculus with 8 samples.

Results

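Border-associated macrophages were followed here through 8 of their marker genes, Mrc1, F13a1, Cd163, Lyve1, Pf4, Ms4a7, Stab1 and Cbr2, out of 54232 genes counted in single nuclei of mouse forebrain. The genes were found by their symbols, and all 8 were present. Nuclei were then chosen by the summed counts of 2 of these genes: a nucleus in which Mrc1 and F13a1 together gave at least 2 unique molecular identifiers (UMIs, each standing for 1 captured RNA molecule) was called a Mrc1/F13a1 nucleus. Of 45560 nuclei kept after filtering, 272 met this rule, which is 0.597% (95% exact binomial interval 0.528% to 0.672%). Counting intervals here and below cover counting error only. Because the rule reads Mrc1 and F13a1, their levels in these nuclei are given as a description, and tests between kinds of nuclei concern the other 6 genes and the genes of other lists.

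The tissue was a small cube of frozen forebrain taken from around the lesion. All animals were male, of the Swiss Webster strain and 10 weeks old. The 4 groups of 2 libraries each were control surgery, BCAS surgery, traumatic brain injury (TBI) surgery, and BCAS+TBI, in which animals had both. The labels give BCAS as an abbreviation, and the title of the study ties it to cerebral hypoperfusion. The groups share sex, strain, age and tissue in the labels. How many animals gave tissue to a library and the time from surgery to collection are not given in the sources used here. The labels call the libraries biological replicates and say no more of their source, so p-values measure the spread between these libraries. In levels summed over all nuclei, fewer nuclei of a type and less RNA per nucleus cannot be told apart.

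The libraries held 28118725 to 56135192 UMIs and 5049 to 7157 kept nuclei each. They fell into a shallow set (control 1, BCAS 1, TBI 1 and BCAS+TBI 2, with at most 33363564 UMIs and a median of 3402 to 3985 UMIs per kept nucleus) and a deep set (the other 4, with at least 42651388 UMIs and medians of 5436 to 6607). Each group has 1 library in each set. Mitochondrial UMIs made up 1.20% to 2.77% of the total in the shallow set and 0.511% to 1.04% in the deep set. Any pair of libraries shared 5 to 20 barcodes, and no Mrc1/F13a1 nucleus shared its barcode with one of another library.

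Border-associated macrophages live in the meninges, around blood vessels and in the choroid plexus, outside the tissue that microglia patrol. Both cell types depend on the growth factor receptor encoded by Csf1r and share many myeloid genes. The macrophages are set apart by scavenger receptors and lectins that take up proteins and debris, while microglia carry P2ry12, Tmem119, Siglech, Sall1 and Gpr34 at far higher levels. Mrc1 encodes the mannose receptor CD206. Cd163 encodes a receptor for haemoglobin bound to haptoglobin. Stab1 encodes the scavenger receptor stabilin-1, and Lyve1 a hyaluronan receptor also used by lymphatic endothelium. F13a1 encodes the A subunit of coagulation factor XIII. Pf4 encodes platelet factor 4, a chemokine of platelets and megakaryocytes as well as of these macrophages. Ms4a7 encodes a membrane protein of the MS4A family, and Cbr2 a carbonyl reductase.

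The 8 genes lie on 8 chromosomes (positions from the GENCODE M21 annotation of GRCm38). Mrc1 is at chr2:14229392-14332057 on the plus strand, F13a1 at chr13:36867178-37050244 on the minus strand, Cd163 at chr6:124304656-124330527 on the plus strand and Lyve1 at chr7:110850607-110863239 on the minus strand. Pf4 is at chr5:90772435-90773383 on the plus strand, Ms4a7 at chr19:11321039-11336146 on the minus strand, Stab1 at chr14:31139013-31168641 on the minus strand and Cbr2 at chr11:120729489-120732114 on the minus strand. F13a1 overlaps 2 antisense genes, Gm49144 and Gm30489, with 490 and 222 UMIs in kept nuclei against 1773 of F13a1 itself. The 3′ end of Stab1 overlaps the 3′ end of Nt5dc2 on the other strand, which had 330 UMIs. How strand was used in the counting is not given in the sources used here, so counts of these pairs may be shared.

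RefSeq (GRCm38.p6) gives promoters for 7 of the 8 genes. The 250 bases before the start are shown for the 2 genes of the rule and for Stab1 and Cd163, the other members with the most UMIs, because these 4 stood together in the macrophage nuclei described further on. Capitals mark the letters GAGGAA or their reverse complement TTCCTC, the core bound by the myeloid factor PU.1, searched on both strands.
Mrc1, chr2:14229164-14229413, plus strand: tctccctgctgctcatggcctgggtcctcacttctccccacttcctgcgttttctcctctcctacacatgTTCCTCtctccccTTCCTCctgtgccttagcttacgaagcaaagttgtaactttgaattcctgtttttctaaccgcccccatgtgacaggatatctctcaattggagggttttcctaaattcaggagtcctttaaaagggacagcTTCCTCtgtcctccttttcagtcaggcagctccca
F13a1, chr13:37050245-37050494, minus strand: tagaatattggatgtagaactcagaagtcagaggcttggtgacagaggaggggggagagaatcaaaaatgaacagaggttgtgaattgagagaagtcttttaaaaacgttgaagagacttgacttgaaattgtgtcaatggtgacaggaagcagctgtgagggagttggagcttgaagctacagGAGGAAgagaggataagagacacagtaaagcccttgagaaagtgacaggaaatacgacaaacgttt
Stab1, chr14:31168642-31168891, minus strand: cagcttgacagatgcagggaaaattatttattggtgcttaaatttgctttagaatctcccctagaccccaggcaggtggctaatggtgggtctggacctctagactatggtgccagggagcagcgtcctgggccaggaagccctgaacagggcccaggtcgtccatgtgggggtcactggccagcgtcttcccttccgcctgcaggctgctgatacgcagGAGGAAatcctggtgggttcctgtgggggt
Cd163, chr6:124304401-124304650, plus strand: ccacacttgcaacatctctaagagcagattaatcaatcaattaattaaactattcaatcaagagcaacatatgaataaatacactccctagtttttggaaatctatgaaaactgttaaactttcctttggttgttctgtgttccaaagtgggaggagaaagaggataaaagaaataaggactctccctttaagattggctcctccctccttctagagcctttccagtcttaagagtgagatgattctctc
The window of Mrc1 held 3 matches, those of F13a1 and Stab1 1 each, and that of Cd163 0. At least 1 promoter of 5 of the 7 genes held the letters, which stood in 23.3% of 32851 promoter windows of the same length. The letters TGCTGAC, the core bound by factors of the MAF family, were in 0 of the 7 genes' windows on either strand and in 3.81% of all windows. These are matches of letters and not bound sites.

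Over all kept nuclei F13a1 gave 1773 UMIs, Stab1 649, Mrc1 648, Cd163 176, Lyve1 71, Pf4 71, Ms4a7 59 and Cbr2 49. Nuclei were clustered and 12 classes were named from marker genes. A further 8 clusters, with 11553 nuclei, stayed unnamed, among them clusters led by oligodendrocyte genes with high doublet scores and clusters led by haemoglobin genes. Levels are given in CPM, the UMIs of a gene for every 1000000 UMIs of the same nuclei. Each of the 8 genes had its highest mean level in the microglia-like class of 703 nuclei, which at this resolution also holds the macrophages. This order is a description, since the classes were built from the same counts.

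**Figure D1:**
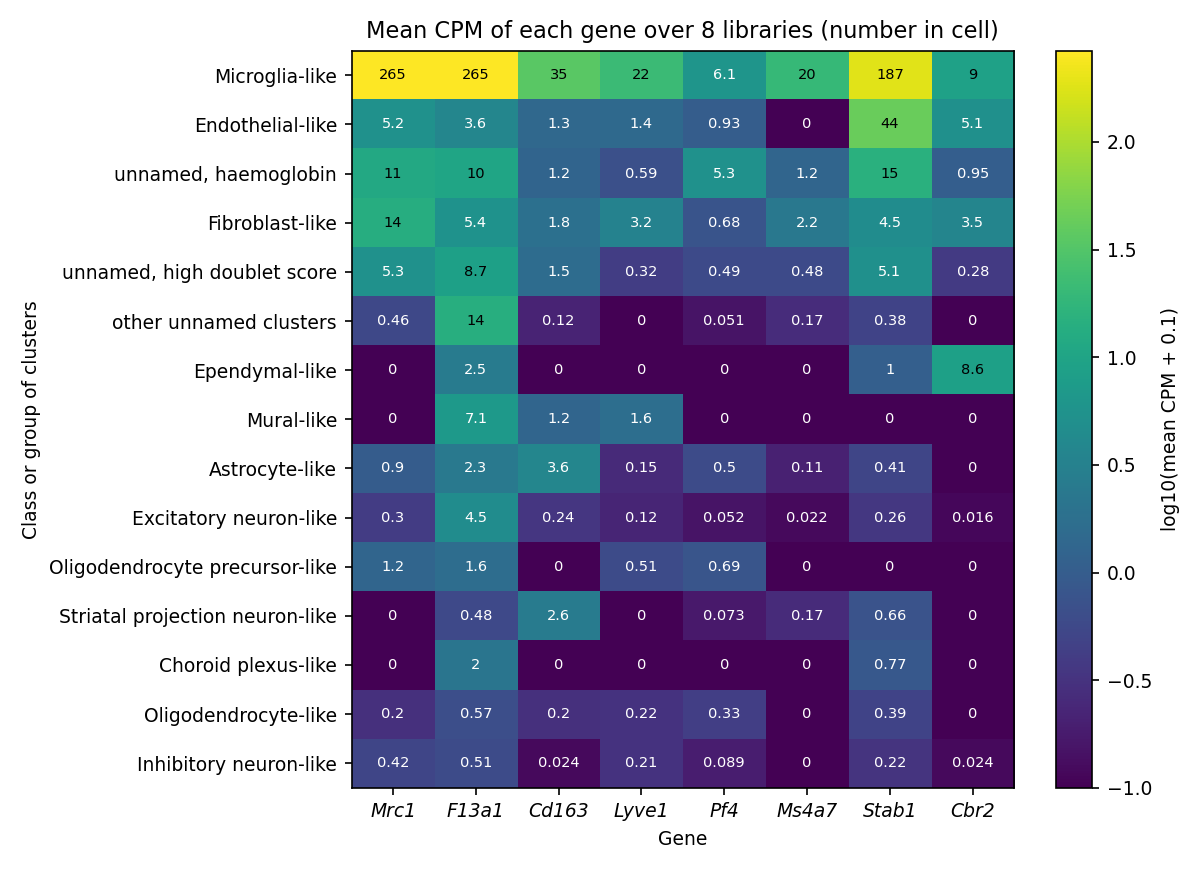
Rows are classes or groups of unnamed clusters, columns are the 8 genes, and each cell gives the mean CPM over 8 libraries, coloured on a log scale. The microglia-like row is highest in every column, and Stab1 also stands at 43.7 in endothelial-like nuclei.

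In the microglia-like class Mrc1 averaged 265 ± 127 CPM (SD, n = 8 libraries), and the next class was fibroblast-like nuclei with 13.7 ± 17.3. The range in the microglia-like class, 38.3 to 441 CPM, overlapped that of the fibroblast-like class, 2.73 to 54.7, through the library control 1. Cd163 averaged 35.1 ± 30.6 CPM in the microglia-like class, with 0 in control 1, and was next highest in astrocyte-like nuclei at 3.60 ± 1.68, where all 8 libraries had at least 1 UMI. Lyve1 averaged 21.6 ± 25.0 CPM, Ms4a7 19.7 ± 16.5, Cbr2 9.01 ± 11.4 and Pf4 6.05 ± 7.97 in the microglia-like class. For these 4 genes the SD was near or above the mean, and the second class in order (fibroblast-like for Lyve1 and Ms4a7, ependymal-like for Cbr2 and the haemoglobin clusters for Pf4) overlapped it in range.

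Stab1 had its second highest level in endothelial-like nuclei. It averaged 187 ± 49.4 CPM in microglia-like nuclei, from 93.9 to 253, and 43.7 ± 14.6 in endothelial-like nuclei, from 26.2 to 67.7, and these ranges did not overlap. Stab1 had a UMI in 14.1% of microglia-like nuclei (median 1146 UMIs) and in 6.13% of endothelial-like nuclei (median 1032), and after each nucleus of at least 1000 UMIs was thinned to 1000 the shares were 12.04% of 457 and 4.21% of 617 nuclei. Cbr2 gave 8 UMIs in the microglia-like and 8 in the endothelial-like class, 9.01 ± 11.4 and 5.06 ± 5.60 CPM, and these ranges overlapped. Pf4 was spread differently, with 29 of its 71 UMIs (40.8%) in the clusters led by haemoglobin genes and 5 in the microglia-like class.

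Most UMIs of each of the 8 genes lay outside the microglia-like class. The class held 13.3% of those of F13a1, against 39.0% for Mrc1 and 7.04% for Pf4. It held 34 of 176 UMIs of Cd163, 21 of 71 of Lyve1, 20 of 59 of Ms4a7, 170 of 649 of Stab1 and 8 of 49 of Cbr2. Excitatory neuron-like nuclei held 29.4% of the F13a1 UMIs. The level of F13a1 for the same number of UMIs was far lower there, at 4.46 ± 2.18 CPM, compared with 265 ± 198 in microglia-like nuclei. Excitatory neuron-like nuclei gave 522 UMIs in 17955 nuclei, and inhibitory neuron-like nuclei gave 12 UMIs in 3838 nuclei, at median depths of 6367 and 5789 UMIs. The inhibitory level was 0.512 ± 0.302 CPM. The ranges of these 2 classes over libraries, with a lowest value of 2.29 CPM in the first and a highest value of 0.963 in the second, did not overlap. After thinning to 1000 UMIs, 0.488% of excitatory, 0.0524% of inhibitory and 4.60% of microglia-like nuclei had a UMI of F13a1. The unnamed clusters 5 and 6, led by Avp and Resp18 and by Rmst and Ebf3, had 22.4 ± 10.4 and 11.7 ± 9.44 CPM of F13a1 and 0.204 ± 0.309 and 0.318 ± 0.434 of Mrc1. The antisense genes Gm49144 and Gm30489 gave 207 and 75 UMIs in excitatory neuron-like nuclei and 3 and 6 in microglia-like nuclei, and their part in the neuronal F13a1 counts was not tested.

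This spread decided which nuclei met the rule. Of the 272 Mrc1/F13a1 nuclei, 37 (13.6%) were microglia-like, 59 excitatory neuron-like, 60 in other unnamed clusters without high doublet scores or haemoglobin genes, 93 in the 2 unnamed clusters with high doublet scores, 13 in the haemoglobin clusters and 10 in other named classes, 5 of them fibroblast-like. The rule therefore did not pick macrophages alone, and the nuclei are called by it below. Among the excitatory neuron-like ones 56 of 59 had F13a1 without Mrc1, as did 58 of 60 in the other unnamed clusters, compared with 4 of 37 in the microglia-like class. The rule was met by 5.26% of microglia-like nuclei (95% exact interval 3.73% to 7.18%), 0.526% of fibroblast-like nuclei and 0.329% of excitatory neuron-like nuclei. It was met by 0 of 3838 inhibitory neuron-like nuclei, which allows a share of up to 0.0782% by the level of 3 nuclei (exact upper bound 0.0961%), and by 0 of 2513 oligodendrocyte-like nuclei, which allows up to 0.119% (exact upper bound 0.147%).

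**Figure D2:**
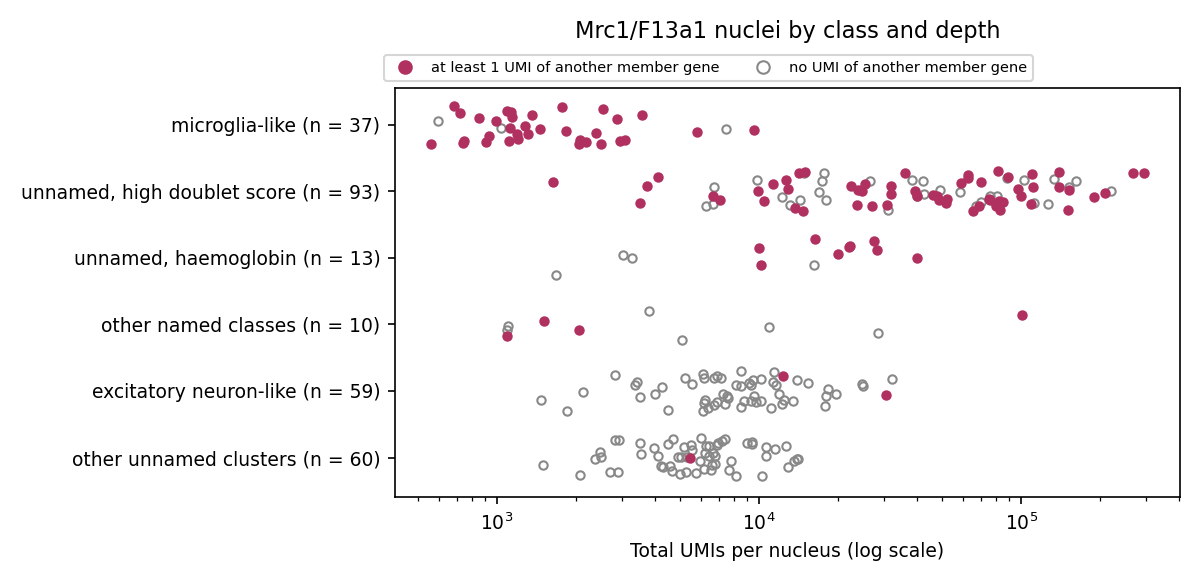
Each point is 1 Mrc1/F13a1 nucleus, placed by its total UMIs (log axis) within its class or group of clusters, and filled points had at least 1 UMI of Cd163, Lyve1, Pf4, Ms4a7, Stab1 or Cbr2. Filled points make up 34 of 37 microglia-like nuclei and 2 of 59 excitatory neuron-like nuclei, and the nuclei of the clusters with high doublet scores lie far to the right at a median of 45988 UMIs.

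The 6 genes that the rule did not use divided these nuclei. At least 1 of them was seen in 34 of the 37 microglia-like Mrc1/F13a1 nuclei (91.9%, exact interval 78.1% to 98.3%, median 1277 UMIs), and 21 of the 37 had at least 2 of the 6. They were seen in 2 of 59 excitatory neuron-like ones (3.39%, interval 0.413% to 11.7%) although these had a median of 8531 UMIs, and in 1 of 60 in the other unnamed clusters. In the clusters with high doublet scores 60 of 93 had one (64.5%) at a median of 45988 UMIs. Thinned to 1000 UMIs, that share was 7.53%, compared with 77.8% of the 27 microglia-like Mrc1/F13a1 nuclei deep enough to thin and 0.109% of oligodendrocyte-like nuclei. Nuclei just inside the threshold differed from those further in: with exactly 2 UMIs of Mrc1 and F13a1, 4 of 148 were microglia-like and 10.8% had another member. With at least 3 UMIs, 33 of 124 were microglia-like and 75.8% had another member. Just outside it, with exactly 1 UMI, 8 of 1072 were microglia-like and 3.17% had another member.

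The question put by the design is whether either surgery changed the number of such nuclei. Among controls 32 of 5373 kept nuclei met the rule in library 1 (0.596%) and 42 of 5574 in library 2 (0.753%). After BCAS alone the numbers were 41 of 5169 (0.793%) and 30 of 6429 (0.467%). After TBI alone they were 40 of 5049 (0.792%) and 29 of 7157 (0.405%). After BCAS+TBI they were 12 of 5659 in library 1 (0.212%) and 46 of 5150 in library 2 (0.893%), the lowest and highest of all 8 libraries in 1 group.

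The 4 libraries with TBI surgery averaged 0.576% ± 0.321 (SD) and the 4 without it 0.652% ± 0.150, a difference of -0.0766 percentage points that the exact two-sided permutation test over 70 assignments did not separate from 0 (p = 0.686). The 4 libraries with BCAS surgery averaged 0.591% ± 0.312 and the 4 without 0.637% ± 0.176, a difference of -0.0454 points (exact permutation p = 0.886). Adjusted over the 2 surgeries, both p-values were 0.886 by the same exact test, whose smallest possible p is 0.0286. The arms overlapped in both cases. Within the shallow set the differences were 0.148 points for TBI and 0.149 for BCAS, and within the deep set -0.301 and -0.240, so the signs were opposite. The exact permutation p-values were 0.667 for TBI and 0.333 for BCAS in the shallow set and 0.333 and 0.667 in the deep set, where 0.333 is the smallest p that 4 libraries can give.

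**Figure D3:**
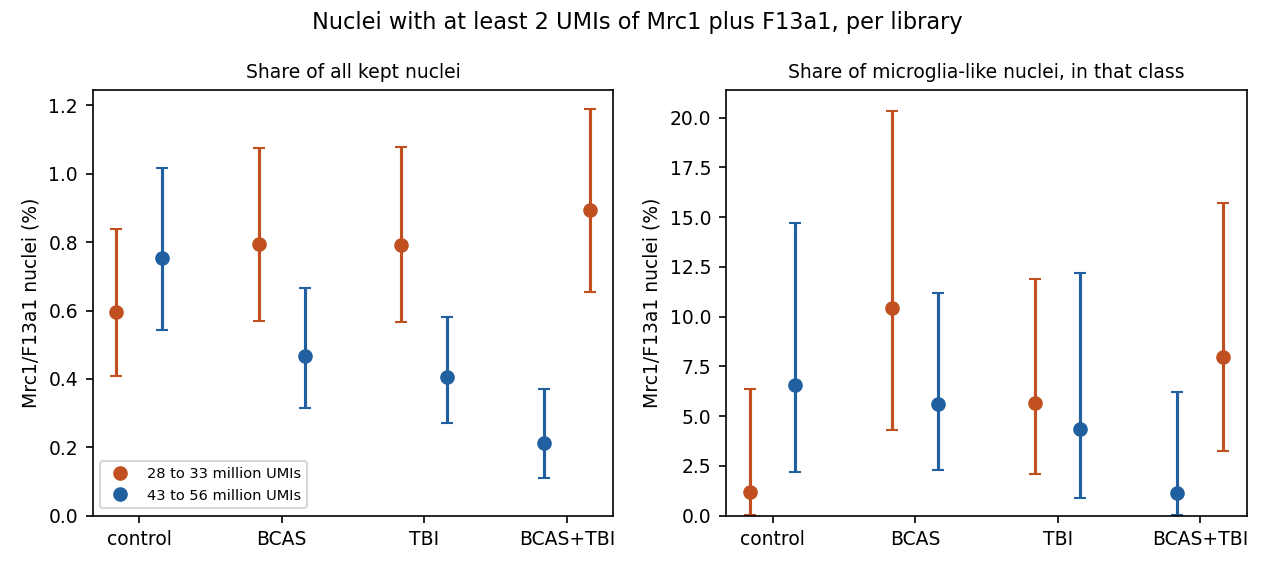
Points are libraries, coloured by total UMIs, with 95% exact binomial intervals. The left panel gives Mrc1/F13a1 nuclei as a percentage of kept nuclei and the right panel those of the microglia-like class as a percentage of that class. On the left the shallow libraries lie between 0.596% and 0.893% and the deep ones between 0.212% and 0.753%, and every group has 1 of each.

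Restricted to the microglia-like class, the libraries held few of these nuclei: 1 of 85 and 5 of 76 in controls, 7 of 67 and 7 of 125 after BCAS, 6 of 106 and 3 of 69 after TBI, and 1 of 87 and 7 of 88 after BCAS+TBI. As a share of microglia-like nuclei they averaged 4.78% ± 2.84 (SD, n = 4) with TBI and 5.95% ± 3.81 without it (exact permutation p = 0.686), and 6.29% ± 3.96 with BCAS and 4.44% ± 2.36 without it (exact permutation p = 0.486). These 2 comparisons were added after the data had been seen. The counting interval of a single library is wide: control 1, with 1 of 85, has an interval of 0.0298% to 6.38%, and BCAS 1, with 7 of 67, one of 4.30% to 20.3%. At finer clustering (Leiden resolution 2) 72 nuclei formed a cluster that met the marker rule for border-associated macrophages, led by Mrc1, F13a1, Lyz2, Ptprc and Fyb, and 34 of them were Mrc1/F13a1 nuclei. It held 3 and 6 nuclei in controls, 13 and 13 after BCAS, 20 and 4 after TBI, and 2 and 11 after BCAS+TBI, in library order. These sizes carry no test, since the genes compared here define the cluster.

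Levels of the 8 genes summed over all kept nuclei did not separate libraries with a surgery from those without it. Mrc1 was 1.39 and 2.58 CPM in controls, 3.78 and 2.16 after BCAS, 4.06 and 1.15 after TBI, and 1.40 and 3.28 after BCAS+TBI. In each treated group 1 library lay above 3 CPM and the other below it. F13a1 was 7.18 and 5.85 CPM in controls, 10.9 and 4.38 after BCAS, 8.19 and 4.17 after TBI, and 4.04 and 11.2 after BCAS+TBI. The F13a1 values followed the library sets, with 7.18 to 11.2 CPM in the shallow set and 4.04 to 5.85 in the deep set, ranges that do not overlap. Cd163 did so too, with 0.738 to 1.59 CPM in the shallow set and 0.290 to 0.460 in the deep set. For Stab1 the sets overlapped, at 1.89 to 3.39 and 0.926 to 3.18 CPM. The share of all genes whose ranges do not overlap between the sets was not counted, so these values do not set F13a1 and Cd163 apart from other genes. Whether depth or another property of the sets accounts for the pattern was not tested.

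**Figure D4:**
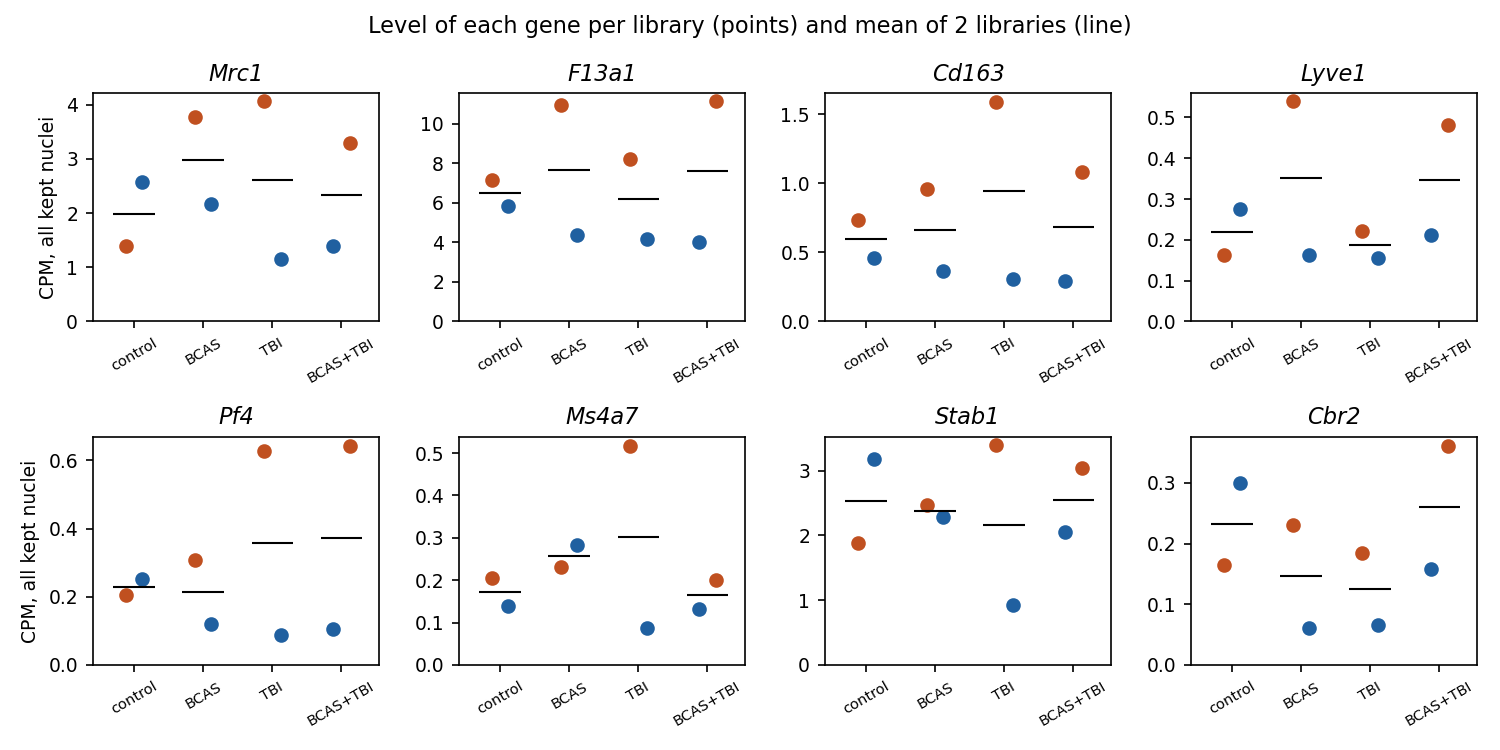
Each panel is 1 gene, with CPM summed over kept nuclei on the y axis, points for the 2 libraries of each group coloured by total UMIs (orange shallow, blue deep), and a line at their mean. In every panel the libraries with a surgery overlap those without it, and for F13a1 and Cd163 all shallow libraries lie above all deep ones. How many of all genes do so between the sets was not counted.

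Of the 8 genes, 6 passed the filter on low counts for the test over all kept nuclei (Cbr2 and Ms4a7 did not), and 0 of the 6 were called in edgeR's quasi-likelihood test with Benjamini-Hochberg adjustment, for TBI, BCAS, BCAS+TBI against TBI, BCAS+TBI against control or the interaction. In the same fits 0% of 23975 genes were called in each of these 5 contrasts, and 58 to 72 genes had an unadjusted p under 0.05. That share lies far below the 0.05 of evenly spread p-values, so the fits were conservative and the lack of calls is weak evidence. The fits had no block for the depth sets. DESeq2 called 2 genes for BCAS, neither of them a member. In edgeR the TBI effect on the members, in log2 and averaged over libraries with and without BCAS, ran from -0.14 for Lyve1 (SE 0.52) to 0.62 for Pf4 (SE 0.76), and the BCAS effect, averaged likewise, from -0.16 for Cd163 (SE 0.62) to 0.68 for Lyve1 (SE 0.52). Each was under 1.5 times its standard error. The CPM of the arms overlapped in all 8 genes for both surgeries, while 0.651% of tested genes did not overlap between arms for TBI and 0.53% for BCAS.

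Within the microglia-like class 3 members passed the filter, Mrc1, Stab1 and F13a1, and 0 of the 3 were called, as were 0% of the 3477 genes tested there in each contrast (77 to 146 genes had an unadjusted p under 0.05). F13a1 in this class was 25.5 and 263 CPM in controls, 629 and 211 after BCAS, 80.5 and 250 after TBI, and 191 and 471 after BCAS+TBI. Its log2 fold change with BCAS surgery was 1.27 (SE 0.53), with an unadjusted p of 0.0309 in edgeR's quasi-likelihood test and an adjusted p of 0.999. The arms overlapped, as they did for all 8 members in this class for both surgeries, where 2.16% of tested genes did not overlap for TBI and 2.42% for BCAS. For Mrc1 in this class the control libraries gave 38.3 and 320 CPM, and the other 6 libraries 118 to 441. The log2 fold change of Mrc1 was 0.33 (SE 0.42) for BCAS and -0.06 (SE 0.42) for TBI, and that of Stab1 0.33 (SE 0.28) and -0.10 (SE 0.28).

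To see what the Mrc1/F13a1 nuclei hold beyond the genes that chose them, they were compared with the 658 microglia-like nuclei that had no UMI of either gene, with counts summed per library and kind, and library as a block. All 272 were taken first, whatever their class, although 37 of them were microglia-like. Summed counts weigh nuclei by depth, and most of the summed UMIs came from the 93 nuclei of the clusters with high doublet scores. Those had a median of 45988 UMIs, against 1277 for the 37, so the differences below describe mainly such deep nuclei. Of the 6 other members 1 passed the filter, Stab1, and it was lower, with a log2 difference of -1.55. All 13 tested of 16 microglial genes and all 23 shared myeloid genes were lower, with median log2 differences of -4.37 and -4.48 against -0.20 over all 4358 genes tested. Of those genes 71.5% were called by edgeR's quasi-likelihood test, 31.2% higher and 40.3% lower. The share of calls that were higher was 43.6%, and 52.5% with TMM and 56.6% with RLE scaling, which moved the median of all genes by 0.21 and 0.30. Stab1 and the 13 microglial genes were lower with each of these scalings. Of 9 neuronal genes 5 passed the filter and all 5 were higher, among them Rbfox3, Syt1 and the glutamate receptor subunit gene Grin2b. The 10 genes called higher with the smallest p were Ppp2r2b, Dlgap1, Fam19a1, Sgcd, Grin2a, Naaladl2, Pex5l, Meg3, Ntm and B3galt1, and those called lower included Laptm5, Lair1, Apbb1ip, Ikzf1, Myo1f, Mir142hg, Ctss, Plcg2 and Dock8. The first group includes synaptic and other neuronal genes such as Dlgap1 and Grin2a, and the second immune-cell genes.

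The picture differed when only the 37 Mrc1/F13a1 nuclei of the microglia-like class were compared with the same 658 nuclei, a comparison planned as an alternative and given here without a filter on low counts, which was added after the data had been seen. The 2 kinds had median depths of 1277 and 1136 UMIs, and 74792 and 838792 UMIs in all. The 658 nuclei hold part of the macrophage cluster found at finer clustering. Its 72 nuclei all lay in this class and 34 of them were Mrc1/F13a1 nuclei. The nuclei of the class with exactly 1 UMI of the 2 genes, left out of both kinds, numbered 8. All 6 other members were higher in the Mrc1/F13a1 nuclei (adjusted p from 9.15e-29 for Cd163 to 0.0275 for Pf4, edgeR's quasi-likelihood test over 19556 genes), where 1.9% of genes were called, 1.19% higher. Cd163, Lyve1, Pf4 and Cbr2 had no UMI in the 658 nuclei and Ms4a7 had 1. These genes entered the unfiltered test through the Mrc1/F13a1 nuclei, so their p-values are a description and not support. The same holds for list genes below with no UMI in the 658 nuclei. With the filter 1 of the 6 was tested, Stab1, and it was higher, where 7.11% of 788 genes were called higher and 17% lower. Stab1 passed the filter through its level in the Mrc1/F13a1 nuclei, so this call too is a description and not support. Without the filter the median of the 6 log2 differences was 5.60, with genes at 0 in the larger kind put at their lower bound. The median over all genes was -0.54, from fitted values without bounds, so the 2 medians are unlike measures. The share of calls that were higher was 62.5%, and depended on scaling, with 8.39% for TMM, 39.6% for RLE and 1.59% for DESeq2, where the median of all genes moved by -0.46, -0.11 and 0.46. The log2 difference of each of the 6 members was positive in all 4, and TMM and RLE scaling each left 5 of the 6 called, without Pf4.

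Cd163 gave 0 UMIs in control 1, 2 in control 2, 4 in BCAS 1, 3 in BCAS 2, 12 in TBI 1, 4 in TBI 2, 1 in BCAS+TBI 1 and 6 in BCAS+TBI 2. The other microglia-like nuclei gave 0 UMIs of it in all 8 libraries. That is 428 CPM (95% Poisson interval 293 to 604) and at least 120-fold higher, taking 3 UMIs over the whole larger kind as the floor. Lyve1 gave 21 UMIs from 6 libraries against 0, at least 78.5-fold higher. Cbr2 gave 8 UMIs from 5 libraries against 0 (at least 29.9-fold) and Pf4 5 UMIs from 4 libraries against 0 (at least 18.7-fold). Ms4a7 gave 18 UMIs, 10 of them in BCAS 2, against 1, a ratio of 202 with a counting interval of 31.9 to 8411. In each of these 5 genes the signal came from 5 to 17 of the 37 nuclei. Pf4 rests on single libraries: its adjusted p in edgeR's quasi-likelihood test was 0.151 to 0.245 without BCAS 1, BCAS 2, TBI 2 or BCAS+TBI 2, each of which held 1 or 2 of its 5 UMIs. DESeq2 called 3 of the 6 members, all higher, and 3014 of 19556 genes, 48 of them higher and 2966 lower.

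Stab1 was higher in the Mrc1/F13a1 nuclei of every library, but control 1 and BCAS+TBI 1 held 1 such nucleus each, and the control 1 value rests on 1 UMI. Its UMIs in the Mrc1/F13a1 nuclei were 1 and 16 in controls, 11 and 21 after BCAS, 3 and 6 after TBI, and 12 and 19 after BCAS+TBI, 89 in all from 27 nuclei. The other microglia-like nuclei gave 6 to 13 UMIs per library, 81 in all, from 72 of 658 nuclei. In CPM it was higher in the Mrc1/F13a1 nuclei in 8 of 8 libraries, at 1190 against 96.6 over all libraries, with a log2 difference of 3.74 (SE 0.38, adjusted p = 2.02e-19, edgeR's quasi-likelihood test). The rule genes themselves stood at 3316 CPM (Mrc1) and 3115 CPM (F13a1), which the rule fixed. Mrc1 was present in 33 and F13a1 in 30 of the 37 nuclei, and both in 26.

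Other genes known from border-associated macrophages were mostly higher in the same nuclei. Of a list of 34, 33 were tested, 20 were higher and 2 lower, with a median log2 difference of 2.86 with bounds. TMM scaling gave 16 higher and 3 lower, and DESeq2 10 and 5. The higher genes include the endocytic adaptor gene Dab2 (172 UMIs against 3, a ratio of 643 with a counting interval of 216 to 3149), the lipoprotein gene Apoe (log2 difference 3.38, SE 0.22), the Notch effector gene Rbpj (4.12, SE 0.34), the transcription factor gene Maf (1.76, SE 0.32) and the scavenger receptor genes Colec12 (5.41, SE 0.46) and Msr1 (5.12, SE 0.61), each with an adjusted p of at most 1.11e-05 in edgeR's quasi-likelihood test. The lectin genes Clec10a and Cd209b gave 16 and 13 UMIs against 0, at least 59.8-fold and 48.6-fold higher. The 2 lower genes were Mertk, a receptor for dying cells that microglia also carry (-1.58, SE 0.35), and the transporter gene Slco2b1 (-1.69, SE 0.44). Among genes that passed the filter, the 10 called higher with the smallest p were Dab2, Apoe, Rbpj, Stab1, Trps1, Myo5a, Slc9a9, Pid1, Lyz2 and Wwp1. Of these, Dab2 and Stab1 at least passed it through the Mrc1/F13a1 nuclei, so their calls are a description.

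Microglial genes were lower in the Mrc1/F13a1 nuclei. Of 16 tested without the filter, 12 were lower and 0 higher, with a median log2 difference of -1.78 with bounds, and 0.711% of all genes were called lower. P2ry12, a purinergic receptor gene of microglia, stood at 281 CPM against 962 (log2 difference -1.86, SE 0.41). Tmem119 gave 2 UMIs against 271 (-3.54, SE 0.78), Siglech 6 against 698 (-3.43, SE 0.55) and the transcription factor gene Sall1 1 against 252 (-4.23, SE 0.90). These 4 had adjusted p-values of at most 0.000786 by edgeR's quasi-likelihood test. Olfml3 and Slc2a5 had 0 UMIs in the 37 nuclei, at least 2.67-fold and 3.06-fold lower. Fcrls, also on the microglial list, did not differ in the test (0.67, SE 0.51).

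Shared myeloid genes were nearer to equal. Without the filter 4 of 23 were lower in the Mrc1/F13a1 nuclei (Cx3cr1, Inpp5d, Ctss and Apbb1ip) and 1 higher (Arhgap15), while TMM, RLE and DESeq2 scaling gave 6, 7 and 6 lower and 0 higher. Cx3cr1, the fractalkine receptor gene, was at 201 CPM against 1512 (log2 difference -2.98, SE 0.41). Csf1r was at 655 against 1313 (-1.01, SE 0.33) with an adjusted p of 0.0976 without the filter and called with it by edgeR's quasi-likelihood test, where 6 of 17 tested shared genes were lower and 24.1% of 788 genes were called. The list median was -0.48 without the filter. Ptprc, which encodes the leukocyte antigen CD45, differed by 0.43 (SE 0.35) and C1qa by -0.48 (SE 0.36), neither called.

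**Figure D5:**
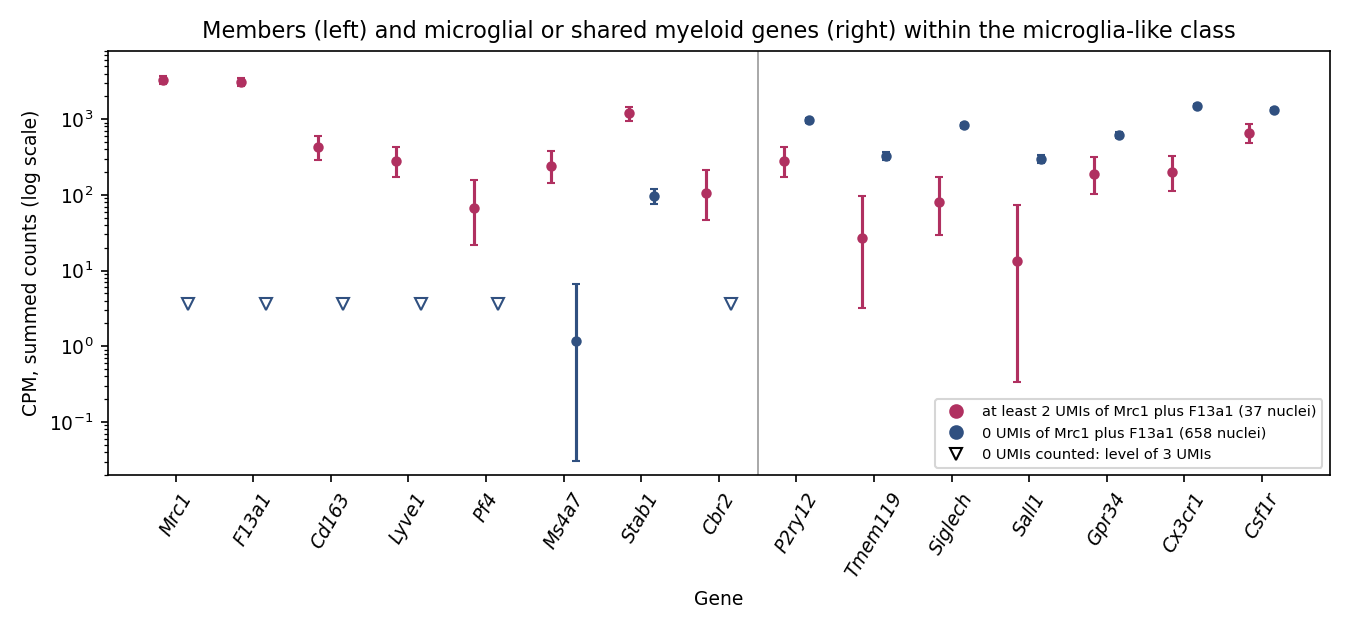
CPM of summed counts (log axis) for the 8 genes, left of the line, and 7 microglial or shared myeloid genes, right of it, in 37 Mrc1/F13a1 nuclei (red) and 658 nuclei with no UMI of either gene (blue) of the microglia-like class. Bars are 95% Poisson intervals that cover counting error only, and open triangles mark 0 UMIs drawn at the level of 3. Red lies above blue for all 8 genes on the left, where Mrc1 and F13a1 were fixed by the rule, and below it for the genes on the right, with the smallest gap for Csf1r.

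Markers of other cells were read in the same 37 nuclei, and their part in the differences was not tested. Of 12 monocyte and neutrophil genes 11 were tested and 3 were higher, Ccr2, Lyz2 and Fn1. The monocyte receptor gene Ccr2 gave 25 UMIs in 4 nuclei from 4 libraries, and Fn1 17 UMIs in 2 nuclei. The lysozyme gene Lyz2, which tissue macrophages also carry, gave 68 UMIs in 22 nuclei. Of 5 genes of MHC class II, 4 were higher (H2-Aa, H2-Ab1, H2-Eb1 and Cd74), but H2-Aa came from 2 and Cd74 from 7 nuclei, 4 of the 7 in TBI 1. Platelet and megakaryocyte genes gave 0 UMIs for all 5 of their markers in the 37 nuclei. Of the lymphatic markers Prox1 gave 1 UMI and the other 5 gave 0. Of 9 neuronal genes 0 were called, with Syt1 at 455 CPM against 422, and 0 were called among 6 lymphatic, 5 blood endothelial, 6 fibroblast, 5 platelet and 4 haemoglobin genes. The fibroblast genes nevertheless had a median log2 difference of 2.54 (3.17 with bounds), against -0.54 over all genes and near the median of the other macrophage genes. They rested on 0 to 6 UMIs each in the 37 nuclei, such as Ranbp3l with 6 UMIs in 3 nuclei (80.2 CPM against 25.0) and Dcn with 3 in 2 nuclei, all in TBI 1, and their adjusted p-values in edgeR's quasi-likelihood test were 0.389 or more. Colec12 and Fn1, counted above as macrophage and monocyte genes, were each among the 10 leading genes of a fibroblast-like cluster, and Colec12 had a UMI in 20 of the 37 nuclei. Of 9 lymphocyte genes 1 was higher, Bank1.

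Co-detection with microglial genes within single nuclei was read from 5 genes, P2ry12, Tmem119, Siglech, Sall1 and Gpr34. At least 1 UMI of these was seen in 19 of the 37 Mrc1/F13a1 nuclei of the class (51.4%, exact interval 34.4% to 68.1%) and in 588 of the 658 others (89.4%, interval 86.8% to 91.6%). Thinned to 1000 UMIs the shares were 37.0% of 27 and 88.7% of 424 nuclei, with 10 and 234 shallower nuclei left out. In oligodendrocyte-like nuclei, which should lack these genes, the share was 9.23% at a median of 1341 UMIs and 5.77% after thinning. A shared myeloid gene was seen in all 37 and all 658 nuclei. Of the 37, 16 had both a microglial gene and another member of the macrophage list.

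By group, a microglial gene was seen in 3 of 6 Mrc1/F13a1 nuclei of the class in controls, 10 of 14 after BCAS, 2 of 9 after TBI and 4 of 8 after BCAS+TBI. Another member was seen in 5 of 6, 14 of 14, 8 of 9 and 7 of 8, and both in 2, 10, 1 and 3. By library the nuclei with a microglial gene were 1 of 1 and 2 of 5, 5 of 7 and 5 of 7, 2 of 6 and 0 of 3, and 1 of 1 and 3 of 7, in the same order of groups. The difference between groups was not tested, since some libraries hold 1 to 3 such nuclei. Over all classes, a microglial gene was seen in 139 of the 272 nuclei, another member in 110 and both in 80. Of those 80, 55 were in the clusters with high doublet scores, where 81 of 93 nuclei had a microglial gene at a median of 45988 UMIs and 11.8% had one after thinning.

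The genes whose pattern over 13 cell groups was most like the mean of the 6 other members were found among 14288 genes with at least 30 UMIs in the 272 nuclei, by Pearson's r of log2(CPM + 1). They were Clec10a (r = 0.85), Cd209f (0.82), Ifi207 (0.82), Ifi202b (0.77), Aoah (0.76), Vps29 (0.75), F630028O10Rik (0.75) and Abcg3 (0.73). Of these, Ifi207, Vps29, F630028O10Rik and Abcg3 were higher in another class than in the 272 nuclei. Abcg3, for example, stood at 18.6 CPM in microglia-like nuclei against 4.37 in the 272. The cell groups share libraries and differ in depth, and r describes likeness only. When the macrophage group was limited to the 37 nuclei of the microglia-like class, 319 genes had enough UMIs and the closest were Snx2 (0.95), Rbpj (0.95), Aoah (0.94), Dclre1c (0.93), Snd1 (0.93), Akap10 (0.92), Cltc (0.91) and F630028O10Rik (0.91). Aoah and F630028O10Rik stand in both lists. Genes entered each list through their UMIs in the Mrc1/F13a1 nuclei, so the lists are a description and carry no test.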

How the data were processed

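Single-nucleus RNA libraries (10x Genomics 3′ chemistry) were made from frozen forebrain, 2 for each of 4 groups. The values are raw UMI counts per gene and barcode as deposited, written by Cell Ranger 7.0.0 per the file headers, and the genome build is GRCm38 (mm10) per the submitters' processing notes, which also name Seurat. The annotation release and how intron reads and strand were counted are not given in the sources used here. No further count columns were left out.

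Of 53390 barcodes, those with fewer than 500 UMIs, fewer than 300 genes or more than 5% mitochondrial UMIs were removed (4922), and then the 6% of each library with the highest Scrublet doublet scores (2908), since the automatic threshold marked 0% to 12.8% of a library. Nuclei were clustered with scanpy 1.11.5 (3000 variable genes, 30 principal components, 15 neighbours, Leiden resolution 1) into 36 clusters, named where at least 3 markers of 1 class stood out.

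Shares of nuclei were compared over libraries with exact permutation tests. Counts summed per library were tested with edgeR 4.0.16 in R 4.3.3 (quasi-likelihood, TMM, a minimum count of 10, all genes, Benjamini-Hochberg threshold 0.05), and DESeq2 1.42.0 was an alternative. Comparisons between kinds of nuclei had library as a block and were scaled by total UMIs, a change from the planned TMM made after a test on simulated data in which TMM shifted sparse sums. The fits were tested on simulated counts with known changes.

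Members are named in every comparison, with the 10 genes of smallest p called higher and the 10 called lower between kinds of nuclei (no predicted, Rik or mitochondrial genes), the 8 genes most like the members, and genes of the lists. Some genes that these rules would name are not reported here. The lists were other genes of border-associated macrophages, MHC class II, microglia, shared myeloid genes, monocytes and neutrophils, lymphocytes, platelets, lymphatic endothelium, blood endothelium, fibroblasts, neurons and haemoglobin. Members and lists were chosen with earlier results of these data known. Alternatives were the UMI threshold, filters, doublets, thinning, scaling, tool, clustering, blocks by replicate number or library set, and leaving out each library. The comparison within the microglia-like class without a count filter and its alternatives were chosen after seeing the data.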

Additional observations from a re-analysis of the deposited data

Results flagged for a closer look

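Of 76 sets of 4 libraries checked, 3 held a library far from the other 3, where chance gives about 1 in 20. All 3 were of levels in the microglia-like class, while the 76 were not all of that class. Among libraries without BCAS surgery, Mrc1 was 38.3 CPM in control 1 against 273, 288 and 320 CPM in TBI 2, TBI 1 and control 2. That library held 1 Mrc1/F13a1 nucleus among 85 microglia-like nuclei. In the same 4 libraries Pf4 was 11.9 CPM in TBI 2 and Cbr2 6.71 CPM in TBI 1, each from 1 UMI, with 0 in the other 3 libraries. Of 38 pairs of effects compared between groups, 0 had all libraries of one moving against all libraries of the other.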

How the results depend on the processing

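The share of Mrc1/F13a1 nuclei had no stable direction. The TBI difference was 0.00514 points after thinning and 0.148 in the shallow set, and -0.182 to 0.0447 when each library was left out. The BCAS difference was 0.0552 with at least 3 UMIs, 0.0536 with 1 UMI of each gene, 0.0322 in the microglia-like class only, 0.0293 after thinning, 0.149 in the shallow set, and -0.146 to 0.0811 with each library left out. Among microglia-like nuclei the TBI difference was 0.995 in the shallow set and -2.76 to 0.326 with each library left out, and the BCAS difference -2.09 in the deep set and 0.460 to 3.56. Replicate numbers did not pair the libraries: deviations of same-numbered libraries correlated at 0.665 to 0.807 among control, BCAS and TBI and at -0.855 to -0.761 with BCAS+TBI. With 2 libraries a group these are mirror images. Under the replicate block 0 members were called, and the exact permutation p was 0.778 for TBI and 0.944 for BCAS. The crossed pairing is that by depth set, with exact permutation p 0.611 and 0.944.

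In the contrasts of groups 0 members were called under every alternative run. Genes called in microglia-like nuclei without the filter on low counts numbered 2 for TBI, 12 for BCAS, 1 for BCAS+TBI against TBI, 3 against control and 5 for the interaction. With the depth set as a block they numbered 9 for BCAS and 3 for the interaction. With each library left out they were 0 to 1 for TBI, 0 to 7 for BCAS (7 without TBI 2), 0 to 1 against control and 0 to 3 for the interaction. DESeq2 called 2 genes over all nuclei for BCAS.

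For all 272 nuclei against microglia-like nuclei, the other members called were 3 of 6 without the filter (2 higher, 1 lower). In the microglia-like class only, 1 of 1 tested was called (higher), and in nuclei of 1000 to 4000 UMIs 0 were tested. Microglial genes called were 7 of 7 tested at that depth and 8 of 8 in the class only. All genes called were 6991 of 27688 tested without the filter (3399 higher, 3592 lower), 208 of 457 at that depth and 190 of 788 in the class only. In the class only, log2 differences turned to 3.75 for Stab1, -1.11 for Dlgap1 and -0.21 for Meg3, and the cause was not tested beyond the change of nuclei.

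Within the class, members called were 3 of 6 with DESeq2, which gave no adjusted p for Pf4 and Cbr2. They were 1 of 1 tested with the filter (Stab1, which passed it through the Mrc1/F13a1 nuclei), and 5 to 6 with each library left out. Microglial genes called were 6 at 1000 to 4000 UMIs and 6 to 11 with each library left out (7 without control 2, 6 without BCAS 2, 7 without TBI 1). Of the other macrophage genes 8 of 8 tested were called with the filter (6 higher, 2 lower). All genes called were 1251 of 19556 with TMM, 3014 of 19556 with DESeq2 and 190 of 788 with the filter. Of 877 values of called single genes under alternatives, 855 were still called in the same direction. The 37 nuclei hold 74792 UMIs in all, and genes with a few UMIs there rest on single nuclei.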

Other observations

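Outside the kept nuclei, 39 of 2908 barcodes removed as doublets (1.34%) and 29 of 4922 that failed the filter (0.589%) had at least 2 UMIs of Mrc1 and F13a1. After thinning to 1000 UMIs, Mrc1/F13a1 nuclei were 0.0847% to 0.172% of nuclei in the shallow libraries and 0.0380% to 0.0673% in the deep ones, ranges that did not overlap. Pf4 over all kept nuclei was 0.205 to 0.641 CPM in the shallow and 0.0882 to 0.253 CPM in the deep libraries, and Ms4a7 was 0.200 to 0.517 and 0.0882 to 0.283 CPM, ranges that overlapped for both.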
